A study of Arabidopsis thaliana with 62 samples.

Results

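The 6 libraries described here hold plastid DNA of wild-type Arabidopsis thaliana seedlings (ecotype Col0), 3 from the membrane fraction and 3 from the stroma fraction of chloroplasts. They were chosen by age, genotype and fraction as given in the sample titles, out of 62 samples in the series. The seedlings were 4 days old, came from plates of 0.5X MS medium under continuous light and received no treatment. Chloroplasts were fixed with 4% formaldehyde before the fractions were separated, an assay named SOLINA in the labels. The extraction protocol attached to these libraries speaks of 5 g of rosette leaves while the tissue field says seedling, and coverage of plastid DNA carries no marker that could check the tissue or the purity of a fraction. Other sets of libraries served for comparison within the wild type. In one, named Day, leaves of 14-day-old plants were collected 2 h after the lights came on (3 membrane and 3 stroma libraries, chloroplasts fixed in the same way). In the other, 50 whole Col0 seedlings per sample were fixed before they were ground (4 membrane and 4 stroma libraries). Seedlings of the lines sig2-2, sig6-1, chl27 and chlm, and leaves after 24 h of darkness, entered the fits only for the estimate of the spread.

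Plastid DNA lies in nucleoids, complexes of DNA, RNA and protein of which some are anchored to the thylakoid or envelope membranes and others float in the stroma. Plastid genes are read by a bacterial-type polymerase encoded in the plastid and by a phage-type polymerase encoded in the nucleus, and the membrane proteins of the photosystems are translated on ribosomes docked at the thylakoid. In a crosslinked chloroplast, a stretch of DNA can be recovered with the membranes because of what it is bound to, directly or through other molecules. The genome is a circle with a large and a small single-copy region, separated by an inverted repeat that carries the ribosomal RNA operon in each copy.

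Coverage per base was averaged in windows of 500 bp or over gene bodies and divided by the mean of its library, so a relative coverage of 1 is the library's average. A ratio below is always membrane over stroma, and a log2 ratio of 0 means that a region held the same share of both fractions. Mean depth was 321 to 468 reads per base in the membrane libraries and 301 to 698 in the stroma libraries. Relative coverage of the windows correlated at r = 0.993 to 0.995 between membrane libraries, 0.983 to 0.992 between stroma libraries and 0.778 to 0.850 between the fractions. Nothing in the labels says that the replicates came from separate cultures, so the spread between them may be technical.

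The map of membrane-associated DNA was made of short high stretches on a broad low ground. Of the windows tested, 178 (68.7%) were called at a limma adjusted p under 0.05, 42 (16.2%) of them higher in membrane and 136 (52.5%) lower. Dividing by the median window in place of the mean gave 60 higher and 34 lower, and dividing by the mean of the single-copy regions gave 50 higher and 87 lower. The median log2 ratio of the 113 gene bodies moved from -0.27 to 0.02 between mean and median scaling. The values are shares of a library, so a lower call states a smaller share of membrane DNA and no absolute amount. Neighbouring windows share fragments and are not independent.

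Windows with tRNA or rRNA genes made up most of the high stretches. All 11 windows with an rRNA gene were higher in membrane, with a median log2 ratio of 1.00. Of the other windows, 39 held a tRNA gene, and 27 of these were higher and 0 lower, with a median of 0.39. Of 187 windows with protein-coding genes only, 2 were higher and 127 were lower, with a median of -0.39. The 2 exceptions lie next to each other in psbA (501 to 1500). Of 22 windows outside every annotated gene, 2 were higher and 9 were lower. The higher ones lie between tRNA genes: 47501 to 48000 (log2 0.90, limma adjusted p = 9.1e-08), between trnL (ArthCt101) and trnF, and 108501 to 109000 (log2 0.24, limma adjusted p = 0.0468), between trnR (ArthCt127) and trnN.

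**Figure D1:**
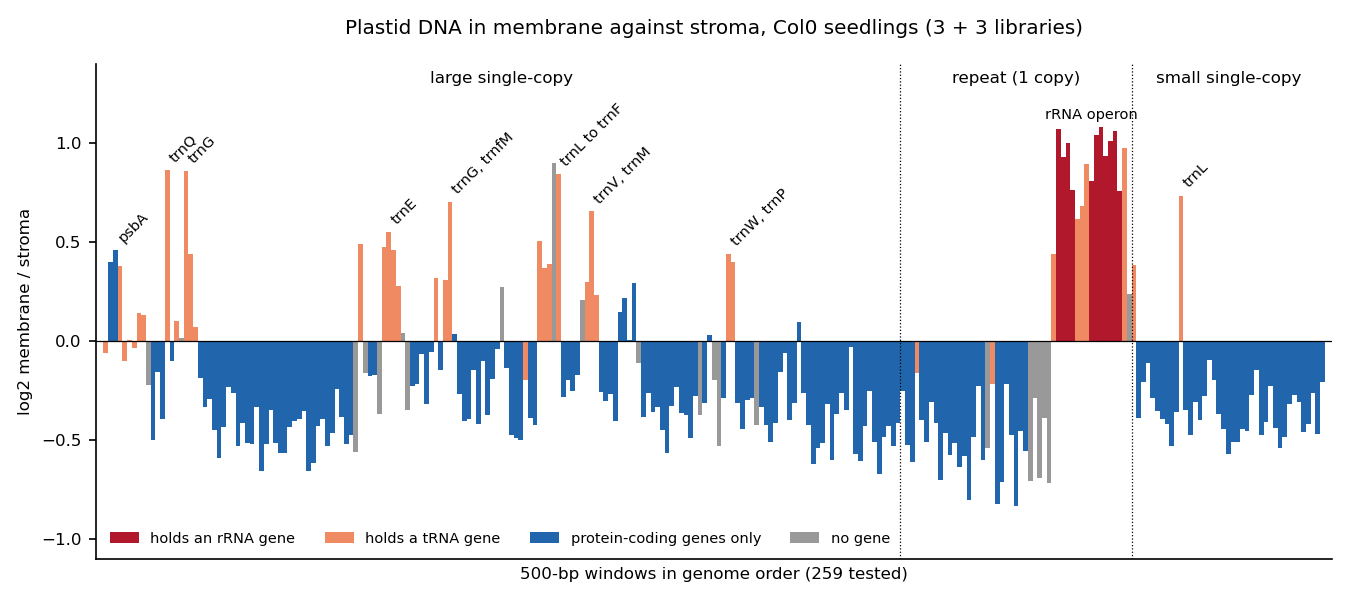
Log2 ratio of membrane to stroma relative coverage (vertical axis) in the 259 tested windows of 500 bp in genome order (horizontal axis), coloured by the genes a window holds; each bar is the difference between means of 3 libraries. The 11 windows with an rRNA gene are all higher in membrane, 27 of the 39 windows with a tRNA gene are higher, and 127 of the 187 windows with protein-coding genes only are lower.

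The same division held for gene bodies. Of 113 tested, 82 (72.6%) were called, 26 (23%) higher in membrane and 56 (49.6%) lower. The 26 comprised 21 tRNA genes, 4 rRNA genes and psbA as the single protein-coding gene. Of 30 tRNA entries, 21 were higher and 1 was lower, with a median log2 ratio of 0.54. Of 79 protein-coding entries, 1 was higher and 55 were lower, with a median of -0.37, against -0.27 for all genes tested. The lower protein-coding entries were thus 69.6% by mean scaling, and they numbered 15 by the median (median log2 ratio -0.08) and 34 by the single-copy mean (median -0.19). Membrane and stroma libraries did not overlap in 98 of 113 genes (86.7%). The count of higher tRNA genes was 22 under both other scalings, while protein-coding genes called higher numbered 5 by the median (psbA, rbcL, rps14 and matK among them) and 3 by the single-copy mean (psbA, rbcL and rps14).

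**Figure D2:**
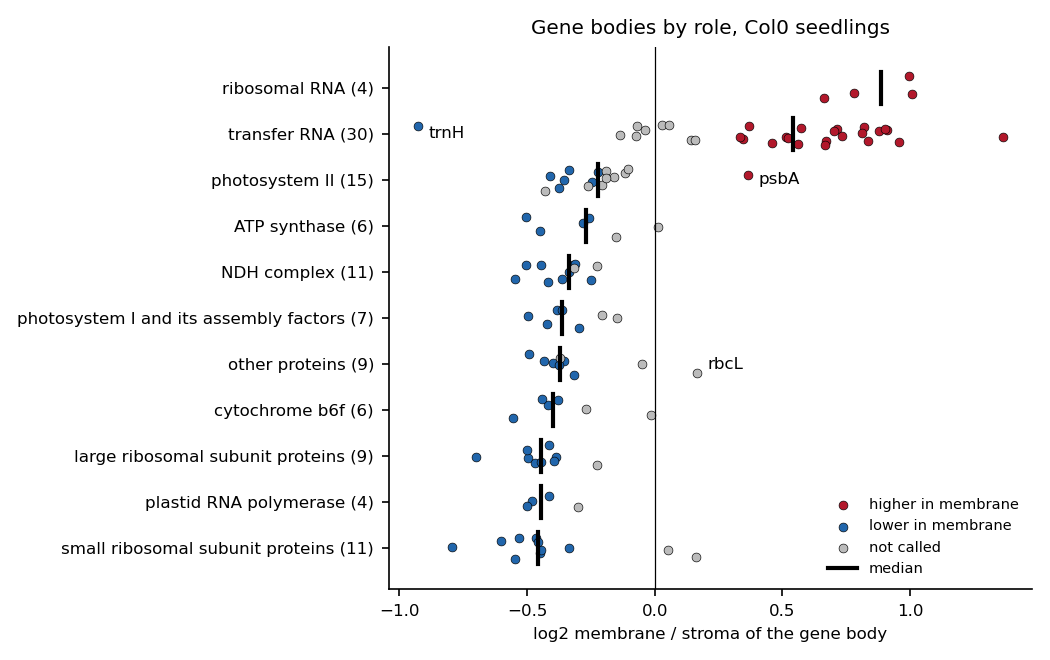
Log2 ratio of membrane to stroma relative coverage of each gene body (horizontal axis) by role of the gene (vertical axis, number of entries in parentheses); points are means of 3 against 3 libraries, black bars are medians. Red points (26) were higher in membrane, blue points (56) were lower and grey points were not called; the rRNA and tRNA rows lie to the right of the protein-coding rows, with trnH and psbA as the exceptions named.

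The ribosomal RNA operon held the longest high stretch. It encodes the RNAs of both subunits of the plastid ribosome, with trnI and trnA in the spacer between the 16S and 23S genes. Relative coverage of rrn23S, the large-subunit rRNA gene (104691 to 107500), was 3.32, 3.07 and 3.48 in membrane replicates 1 to 3 and 1.49, 1.79 and 1.62 in stroma. The lowest membrane library lay far above the highest stroma library. The log2 ratio was 1.01 with a standard error of 0.18 (limma adjusted p = 9.6e-05), a ratio of 2.01. The small-subunit gene rrn16S (101012 to 102502) had 3.21, 2.92 and 3.40 in membrane and 1.45, 1.78 and 1.55 in stroma, a log2 ratio of 1.00 (limma adjusted p = 0.00019). The short rrn4.5S had a log2 ratio of 0.78 and the unnamed rRNA entry ArthCr091, tested in the second repeat copy, 0.66. Both were below the large genes of the operon, and both kept their groups of libraries apart. Values of repeat genes stand for both copies, which coverage cannot separate.

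The operon was taken here from rrn16S to the end of rrn4.5S (101012 to 107701, first copy only). ArthCr091, annotated at 130580 to 130700 in the second copy, is outside this range, and its annotated place is outside the tested windows. Its mirrored place in the first copy, where the windows list no such entry, lies between rrn4.5S and trnR (ArthCt127). That place is inside tested windows, and it did not count when windows with an rRNA gene were sorted. The window 108001 to 108500 was therefore sorted by its tRNA gene. The operon so bounded carried 13.1%, 12.3% and 13.8% of all coverage in the membrane libraries, on 4.33% of the bases. In the stroma libraries it carried 6.32%, 7.59% and 6.86%. The 5 windows with the highest ratios of the genome were all in rrn23S or rrn16S, with log2 ratios of 1.01 to 1.08. Each of the 3 membrane libraries had 15 windows above a relative coverage of 2, and each stroma library had 0.

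The edges of this stretch were sharp. The 18 adjacent higher windows ran from 100501 to 109500, that is 9000 bp with a mean log2 ratio of 0.81. The window just before, 100001 to 100500, was among the 5 lowest of the genome with a log2 ratio of -0.72 (limma adjusted p = 6.6e-07). Its relative coverage was 0.876 ± 0.0214 in membrane and 1.44 ± 0.0549 in stroma (SD, n = 3 each). The next window, 100501 to 101000, stood at a log2 ratio of 0.44 and the one after it, with the start of rrn16S, at 1.07. At the other end the ratio dropped from 0.38 in 109001 to 109500, the window of trnN, to -0.39 in 109501 to 110000, inside ycf1 (ArthCp070). Before the operon, by mean scaling, 9 adjacent lower windows ran from 96001 to 100500 over ndhB and rps7, with a mean of -0.57.

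The repeat as a whole thus mixed opposite parts. Its relative mean coverage was 1.58 ± 0.0499 in membrane and 1.37 ± 0.0660 in stroma (SD, n = 3 each), a log2 ratio of 0.21 at an exact two-sided permutation p of 0.1, the smallest that 3 against 3 libraries allow. Outside the operon, the first copy had 1.05 ± 0.0278 in membrane and 1.29 ± 0.0370 in stroma, a log2 ratio of -0.30 at the same p. The ratio of the whole repeat turned to -0.30 when the median over its bases replaced the mean. The large single-copy region had 0.762 in membrane and 0.851 in stroma, and the small single-copy region 0.585 and 0.721, both at the same exact permutation p of 0.1. In all of these the 3 membrane libraries lay on one side of the 3 stroma libraries.

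tRNA genes were higher across the genome, not in the repeat alone. Transfer RNAs carry amino acids to the ribosome, and the glutamate tRNA encoded by trnE is in addition the starting substrate of chlorophyll and haem synthesis. Of 23 tRNA entries outside the repeat, 17 were higher and 1 was lower, and of 7 in the repeat 4 were higher and 0 lower. Counted as loci joined within 1000 bp, 9 of 13 outside the repeat held a higher gene. The genes named in the next 2 paragraphs beyond the 10 highest and 10 lowest were chosen after their values were seen.

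The highest ratio of any gene was that of trnR (ArthCt127, 108302 to 108375, arginine), just beyond the rRNA operon: relative coverage was 4.19, 3.85 and 4.54 in membrane and 1.60, 1.87 and 1.43 in stroma, a log2 ratio of 1.36 with a standard error of 0.23 (limma adjusted p = 9.6e-05). The lowest membrane library stood more than 2-fold above the highest stroma library. Far from the repeat, trnE (30466 to 30538) had 3.63, 3.36 and 3.55 in membrane and 1.73, 1.79 and 1.92 in stroma, a log2 ratio of 0.96 with a standard error of 0.22 (limma adjusted p = 0.00072). trnE lies in a stretch of 4 adjacent higher windows (29501 to 31500) that also holds trnD, trnY and trnT, with a mean log2 ratio of 0.44. The groups of libraries did not overlap in any of the 4 genes, which was also so for 98 of all 113 genes (86.7%).

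The glutamine gene trnQ (6616 to 6687) had relative coverage of 3.59, 3.06 and 2.96 in membrane and 1.54, 1.75 and 1.82 in stroma, a log2 ratio of 0.91 with a standard error of 0.18 (limma adjusted p = 0.00028). The proline gene trnP (66490 to 66563) had 3.01, 2.99 and 2.58 against 1.54, 1.49 and 1.54, a log2 ratio of 0.90 with a standard error of 0.15 (limma adjusted p = 9.6e-05). The leucine gene trnL (Arthct122, 114270 to 114349), in the small single-copy region, had 2.37, 2.42 and 2.26 against 1.13, 1.33 and 1.52, a log2 ratio of 0.83 (limma adjusted p = 0.00031). In these genes too, no stroma library reached the lowest membrane library. The elongator methionine gene trnM (log2 ratio 0.88), trnA (0.82) and trnN (0.81) completed the 10 highest genes, all of which encode tRNA or rRNA. A second long stretch in the large single-copy region, 46001 to 48500 with ArthCt100 (a tRNA entry without a symbol), trnL (ArthCt101) and trnF, had a mean log2 ratio of 0.60 over 5 windows.

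Not every tRNA gene was called. The 8 that were not comprised trnR (ArthCt093, log2 ratio 0.16), trnS (ArthCt091, 0.14), trnV (Arthct121, 0.06), trnK (0.03), trnI (ArthCt113, -0.04), trnC (-0.07), trnS (ArthCt125, -0.07) and trnL (ArthCt126, -0.14). Relative coverage of trnC (27373 to 27443), the cysteine tRNA gene, was 1.52, 1.30 and 1.34 in membrane and 1.33, 1.42 and 1.60 in stroma, so the groups overlapped. The window that holds trnC was nevertheless higher, at a log2 ratio of 0.49, and the highest bins in it lay beside the gene. The trnK entry spans the long matK reading frame in its intron and had values near those of matK (log2 ratio -0.05). The histidine gene trnH was the lowest of all genes, with 0.345, 0.365 and 0.290 in membrane and 0.516, 0.661 and 0.739 in stroma (log2 ratio -0.93 with a standard error of 0.33, limma adjusted p = 0.0165). It lies at bases 4 to 76 of the linear reference, where coverage was low in both fractions, and its call was lost under median scaling (limma adjusted p = 0.191) and single-copy scaling (limma adjusted p = 0.126).

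**Figure D3:**
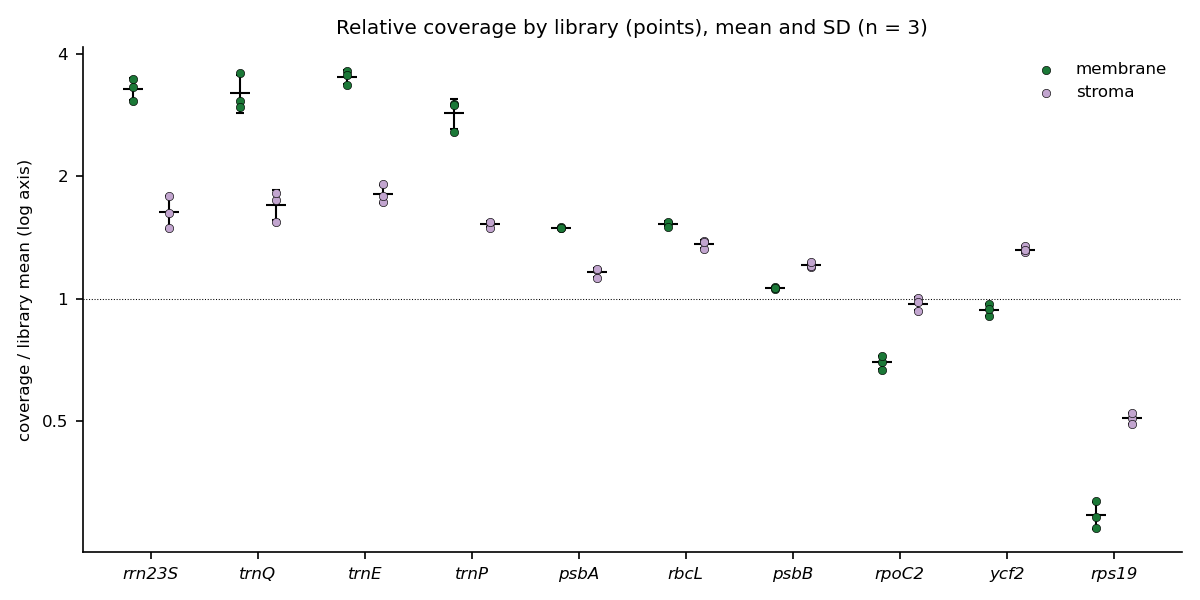
Relative coverage (coverage over the library mean, log2-spaced vertical axis) of 10 gene bodies in each of the 3 membrane and 3 stroma libraries; points are libraries, bars are means and SD. Membrane libraries lie above stroma for rrn23S, trnQ, trnE, trnP, psbA and rbcL and below for psbB, rpoC2, ycf2 and rps19. The groups overlap in none of the 10, which was also so for 98 of all 113 genes (86.7%). rbcL and psbB were not called in the fit of all 30 libraries.

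No short protein-coding gene was called higher. Of 24 tRNA entries of 100 bp or less, 16 were higher and 1 was lower, with a median log2 ratio of 0.54. Of 14 protein-coding entries of 150 bp or less, 0 were higher and 8 were lower, with a median of -0.36. The longest entry was 92 bp in the tRNA group and 135 bp in the protein-coding group, so the lengths differ. tRNA genes were also well covered in stroma, at a median relative coverage of 1.47 against 1.03 for all genes. The log2 ratio correlated with log2 stroma coverage at r = 0.52 over all 113 genes, 0.31 over the 30 tRNA entries and 0.27 over the 79 protein-coding entries, as a description of genes that share libraries. At a relative coverage of 1 or more in stroma, 16 of 22 tRNA entries were higher and 0 lower, and 1 of 35 protein-coding entries was higher and 22 lower. Base composition was not analysed here. Its part in these ratios, and that of gene length, was not tested.

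The high ratio at tRNA genes was narrow. In the single-copy regions, the 57 bins of 100 bp that touch a tRNA gene had a median log2 ratio of 0.59, and 54 of them were above 0. Here trnK (log2 ratio 0.03 over 2631 bp) was left out. Bins were pooled over genes, so the longest entries weigh most: trnG (ArthCt092, 786 bp), trnV (ArthCt103, 673 bp) and trnL (ArthCt101, 597 bp). The median was 0.13 over 87 bins at 1 to 250 bp from a tRNA gene, -0.22 over 67 bins at 251 to 500 bp and -0.35 over 97 bins at 501 to 1000 bp. Beyond 2000 bp it was -0.37 over 580 bins, of which 10.2% were above 0. The median level of relative coverage in membrane was 1.24 inside tRNA genes, 0.620 at 1 to 250 bp, 0.584 at 251 to 500 bp and 0.635 beyond 2000 bp. In stroma the medians of the same classes were 0.904, 0.527, 0.683 and 0.854. Every membrane library stood highest inside tRNA genes. Of the stroma libraries, replicate 1 had 0.848 inside tRNA genes and 0.911 beyond 2000 bp, replicate 2 had 0.856 and 0.820, and replicate 3 had 0.900 and 0.839.

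**Figure D4:**
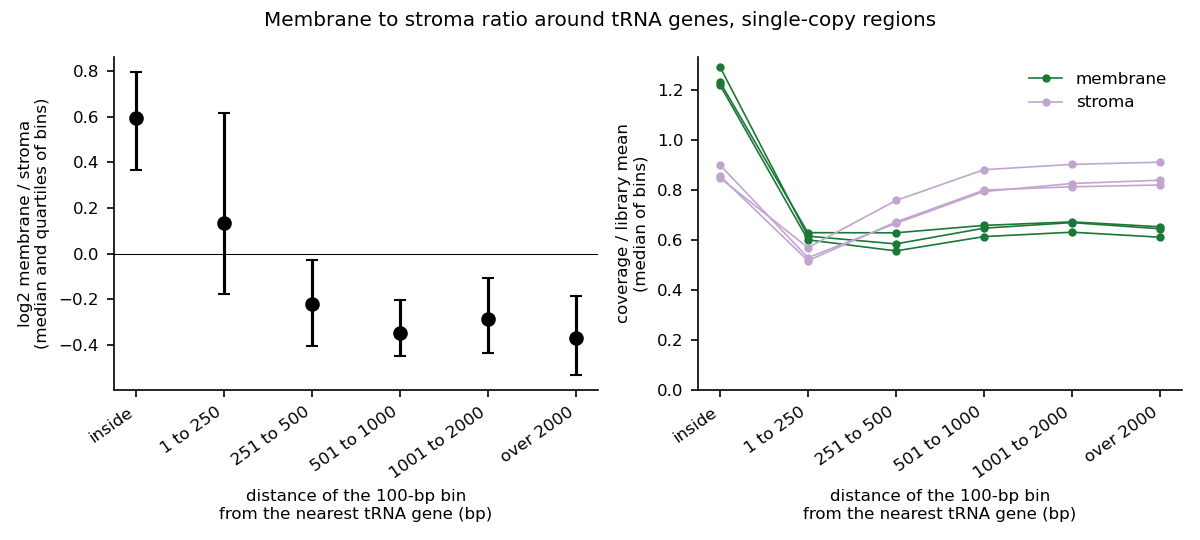
Left, median and quartiles of the log2 membrane to stroma ratio of 100-bp bins by distance from the nearest tRNA gene in the single-copy regions (trnK left out); right, median relative coverage of the same bins, 1 line per library. The ratio falls from 0.59 inside tRNA genes to -0.22 at 251 to 500 bp, and the 3 membrane libraries lie far higher inside the genes than in the distant bins, while in stroma 2 libraries lie slightly higher inside the genes and replicate 1 slightly lower.

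Some of the steepest ratios lay beside genes, at places of low coverage. Of the 30 bins of 100 bp with the highest ratios, 9 were in an rRNA gene. A further 19 lay within 250 bp of a tRNA gene other than trnK, which was left out of the distances. Together these bins made up 93.3% of the 30, against 18.8% of the 1295 bins. The highest, 27101 to 27200, lies 173 bp from trnC, with relative coverage of 0.538, 0.521 and 0.512 in membrane and 0.130, 0.141 and 0.170 in stroma. The second, 54701 to 54800, lies 158 bp from the start of rbcL, in the spacer shared with atpB and far from any tRNA gene (2573 bp), with 0.579, 0.561 and 0.533 in membrane and 0.160, 0.151 and 0.169 in stroma. Their log2 ratios were 1.84 and 1.80, and the libraries were apart by more than 3-fold in each. These bins were picked by their values and carry no test.

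psbA encodes the D1 protein of the photosystem II reaction centre, which is made in large amounts because it is damaged and replaced in the light. Its relative coverage was 1.49, 1.50 and 1.49 in membrane and 1.17, 1.13 and 1.18 in stroma. The 3 membrane libraries had an SD of 0.00778 and lay above every stroma library. The log2 ratio was 0.37 with a standard error of 0.09 (limma adjusted p = 0.00118), a ratio of 1.29, and psbA was called higher under all 3 scalings. In 100-bp bins the log2 ratio was above 0 over the whole gene of 1062 bp. On the side of trnH, 1 bin beyond the gene had 1.16 (650 bp from the middle, at a low relative coverage of 0.0950 in membrane and 0.0426 in stroma), and the next bins had -0.28 and -0.85. On the other side the first bins beyond the gene had 1.09, 0.56 and 0.18. The neighbouring window 1501 to 2000, with the spacer and the edge of trnK, was also higher (log2 ratio 0.38).

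The other 14 photosystem II genes were not higher. Of the 15 entries 6 were lower, beside 69.6% of all protein-coding entries, and the median log2 ratio was -0.22. Under median and single-copy scaling psbA was still the 1 entry called higher and 0 were lower, with medians of 0.07 and -0.04. psbB, which encodes the CP47 antenna protein of the same reaction centre, had 1.06, 1.07 and 1.06 in membrane and 1.20, 1.20 and 1.23 in stroma, a log2 ratio of -0.19 that was not called (limma adjusted p = 0.0617). psbD and psbC, for the D2 and CP43 proteins, had -0.16 and -0.12. The lowest was psbT, a small subunit gene, at -0.43 (limma adjusted p = 0.115). psbA thus stood alone in its complex by the test, and the libraries of the other named genes lay with membrane below stroma.

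Genes of the other photosynthetic complexes were lower or not called, in shares to be read against the 69.6% of all protein-coding entries. For photosystem I and its assembly factors, 5 of 7 were lower with a median of -0.36, from psaC (-0.15, the iron-sulphur subunit) to psaI (-0.49). psaA, for a core protein that binds the primary electron donor, had 1.05, 1.05 and 1.01 in membrane and 1.23, 1.16 and 1.20 in stroma, a log2 ratio of -0.21 (limma adjusted p = 0.0690). For cytochrome b6f 4 of 6 were lower (median -0.40), with petB, the cytochrome b6 gene, at -0.55 (limma adjusted p = 0.00049). For the ATP synthase 4 of 6 were lower (median -0.27), with atpF at -0.50 and atpH, the ring subunit, at 0.01. For the NDH complex, which cycles electrons around photosystem I, 9 of 11 were lower (median -0.34), from ndhK at -0.23 to ndhI at -0.55 (limma adjusted p = 0.0016). These counts depended on the scaling. By the median, 1 photosystem I, 3 cytochrome b6f, 2 ATP synthase and 0 NDH entries were lower, with medians of -0.07, -0.11, 0.02 and -0.05. By the single-copy mean, the lower entries numbered 3, 3, 2 and 6.

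rbcL, the gene of the large subunit of the carbon-fixing enzyme Rubisco, a stroma protein, was the second highest protein-coding gene. It had relative coverage of 1.54, 1.54 and 1.50 in membrane and 1.39, 1.33 and 1.38 in stroma. The groups did not overlap, but the log2 ratio of 0.17 with a standard error of 0.12 was not called (limma adjusted p = 0.195). That standard error comes from a spread shared by all 30 libraries fitted together, not from the Col0 libraries alone. Fitting Col0 alone called 101 of 113 genes, in place of 82. It was called under median scaling (log2 ratio 0.46, limma adjusted p = 0.00443) and single-copy scaling (0.35, limma adjusted p = 0.0301). rps14, a small ribosomal subunit gene next to trnfM, had 0.16 and was called under the same 2 scalings.

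The plastid RNA polymerase genes had a median log2 ratio of -0.45, with 3 of 4 lower, a share near that of all protein-coding entries (69.6%). Under median scaling 2 were lower, with a median of -0.16, and under single-copy scaling 3. rpoC2, for the longest of its subunits, had 0.701, 0.722 and 0.669 in membrane and 1.00, 0.933 and 0.983 in stroma, a log2 ratio of -0.48 with a standard error of 0.08 (limma adjusted p = 9.6e-05). Low stretches were counted by mean scaling, where 136 windows of the genome were lower, against 34 by the median and 87 by the single-copy mean. By mean scaling all 8 windows of rpoC2, all 5 of rpoC1 and all 7 of rpoB were lower. The 26 adjacent lower windows from 14001 to 27000 (atpI, rps2, rpoC2, rpoC1 and rpoB) had a mean log2 ratio of -0.48. They formed the longest low stretch, 13000 bp. rps2, a small-subunit ribosomal protein gene in it, had 0.707, 0.705 and 0.681 against 1.02, 0.961 and 1.04, a log2 ratio of -0.53 with a standard error of 0.07 and the smallest p of all genes (limma adjusted p = 2.4e-05).

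Of ribosomal protein genes, 9 of 11 of the small subunit were lower (median -0.46) and 8 of 9 of the large subunit (median -0.45), beside 69.6% of all protein-coding entries. Under median scaling the small subunit had 4 lower and 2 higher (median -0.17) and the large subunit 2 lower (median -0.16). Under single-copy scaling the small subunit had 7 lower and 1 higher and the large subunit 6 lower. These proteins join the rRNAs of the operon that was highest in membrane. rps19 had 0.318, 0.273 and 0.290 in membrane and 0.510, 0.493 and 0.524 in stroma, a log2 ratio of -0.80 (limma adjusted p = 0.00051). rpl23 had 0.666, 0.665 and 0.616 against 1.05, 1.04 and 1.06, a log2 ratio of -0.70 (limma adjusted p = 9.6e-05). In both, no membrane library reached the lowest stroma library. rps7 (-0.55) was also among the 10 lowest genes.

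All 8 genes listed as read mainly by the nuclear-encoded polymerase were lower (median -0.42), and so were 13 of 27 photosynthesis genes (median -0.26), with psbA higher, beside 69.6% of all protein-coding entries. Under median scaling 3 of the 8 were lower (median -0.13), and 3 of the 27 were lower and 2 higher (median 0.03). Under single-copy scaling 7 of the 8 were lower, and 4 of the 27 were lower and 2 higher. The long reading frame ycf2, whose product belongs to an ATPase complex linked to protein import at the envelope, had 0.905, 0.968 and 0.946 in membrane and 1.30, 1.35 and 1.31 in stroma, a log2 ratio of -0.49 with a standard error of 0.09 (limma adjusted p = 9.6e-05). Of its 14 windows 13 were lower, from -0.31 to -0.80. Others on this list were accD, for a subunit of the enzyme that starts fatty acid synthesis (-0.36), clpP, for a protease subunit (-0.43), and rpoB (-0.41, limma adjusted p = 0.00029). The lower calls of rpoB, accD and ycf2 did not hold under median scaling (limma adjusted p = 0.0985, 0.314 and 0.140).

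Within long genes the ratios spanned 0.23 to 0.61 log2 units. The span was 0.29 over the 7 windows of rpoB, 0.28 over the 6 windows of rrn23S and 0.38 over the 5 windows of psaA. The widest spans among genes of 4 or more windows were in ndhB (0.61) and ycf2 (0.57), both in the repeat. The lowest window of the genome, 96501 to 97000, lies in ndhB, with relative coverage of 0.531 ± 0.0412 in membrane and 0.943 ± 0.00575 in stroma (SD, n = 3 each) and a log2 ratio of -0.83 (limma adjusted p = 1.2e-05). Windows 94501 to 95000 (-0.82) and 95001 to 95500 (-0.71) in the same gene and 91501 to 92000 in ycf2 (-0.80) were also among the 5 lowest.

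Coverage was more uneven in membrane than in stroma in these seedlings and in Day leaves, but not in the seedlings fixed whole. The SD of log2 relative coverage over the 259 windows was 0.742 ± 0.0391 in membrane and 0.554 ± 0.0390 in stroma (SD, n = 3 each; exact two-sided permutation p = 0.1, the smallest possible). It was 0.408 ± 0.0357 in the 3 Day membrane libraries and 0.242 ± 0.00999 in Day stroma. In seedlings fixed whole it was 0.236 ± 0.104 in membrane and 0.255 ± 0.0376 in stroma (SD, n = 4 each). The part of uneven coverage in the ratios was not tested.

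The seedlings fixed whole gave the same measure in libraries of their own. There, 28 windows (10.8%) were called, 12 (4.63%) higher and 16 (6.18%) lower, and 18 genes (15.9%), 12 (10.6%) higher and 6 (5.31%) lower. Replicate numbers were taken to pair the libraries of this set, a choice made from these same values since the labels name no shared batch. With the replicate as a block 102 windows (38 higher, 64 lower) and 59 genes (26 higher, 33 lower) were called. Leaving out 1 library without the block gave 13 to 21 windows, fewest without stroma replicate 2, and 9 to 20 genes, fewest without membrane replicate 1. Of the 26 genes higher in the first set, all 26 had a ratio above 0 and 11 were called higher, which was 42.3% of the first list and 91.7% of the 12 in the second. Of the 56 lower genes, 54 had a ratio below 0 and 6 were called lower. No gene was called in opposite directions. Across genes the ratios of the sets correlated at r = 0.94 (n = 113) and across windows at r = 0.91 (n = 259), as a description.

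Effects were smaller in the seedlings fixed whole: the median log2 ratio of tRNA entries was 0.35, of rRNA entries 0.64 and of protein-coding entries -0.13. trnQ had relative coverage of 1.47, 1.47, 1.39 and 1.29 in membrane and 0.958, 1.06, 0.840 and 0.762 in stroma, and every membrane library was above every stroma library. Its log2 ratio was 0.64 (limma adjusted p = 0.00205). psbA had 1.12, 1.24, 1.14 and 1.08 against 1.01, 1.07, 0.972 and 0.912, a log2 ratio of 0.21 (limma adjusted p = 0.0335). rrn23S had the highest ratio (0.68), but one membrane library (0.873) fell within the stroma range of 0.603 to 0.906, and it was not called without the block (limma adjusted p = 0.129). Between libraries of the same number the membrane one was above the stroma one each time, 1.33 over 0.906, 1.77 over 0.886, 1.30 over 0.831 and 0.873 over 0.603. With the replicate as a block rrn23S was called higher (limma adjusted p = 0.00108), and so were rrn16S (0.00148), rrn4.5S (0.00057) and ArthCr091 (0.0011). The sets differ in preparation as well as in libraries, and were not tested against each other.

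In Day leaves the rRNA operon and psbA were again higher, among 15 of 113 genes called higher there. The others included 6 of 30 tRNA entries, of which trnS (ArthCt117) alone lies outside the repeat. trnV (Arthct121), trnI (ArthCt107), trnA, trnR (ArthCt127) and trnN lie in it. Protein-coding entries called higher in Day numbered 5, psbA, psbD, psbC, psaB and rps14, and psaB was called lower in seedlings. In Day 101 windows (39.0%) and 55 genes (48.7%) were called. rrn23S had a log2 ratio of 1.13 and psbA of 0.42, against 1.01 and 0.37 in seedlings, and neither difference was called (limma adjusted p = 0.901 and 0.906). The median of the tRNA list was 0.01 in Day and 0.54 in seedlings. The difference of the ratios was called for 42 windows (16.2%) and 11 genes (9.73%), 5 (4.42%) higher in seedlings and 6 (5.31%) lower. Of the 42 windows higher in seedlings 1 was called lower in Day, and of the 136 lower ones 4 were called higher. Among those 4 was 100001 to 100500, just before the rRNA operon. Its log2 ratio was 0.27 in Day, a difference of -0.99 (limma adjusted p = 4.0e-06).

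All 5 genes with a higher ratio in seedlings encode tRNAs: trnL (Arthct122, difference 1.04), trnQ (1.02), trnP (0.96), ArthCt100 (0.87) and trnG (ArthCt092, 0.59), the last at a limma adjusted p of 0.0177. In Day, relative coverage of trnQ was 1.11, 1.29 and 1.06 in membrane and 1.32, 1.25 and 1.19 in stroma, so that the groups overlapped and the ratio was -0.12. The 6 genes with a lower ratio in seedlings were rpl23 (difference -0.54), rps7 (-0.54), psaB (-0.52), psbC (-0.47), psbD (-0.42) and ycf2 (-0.41). psaB had 1.07, 1.36 and 1.30 in Day membrane and 1.08, 1.10 and 1.00 in Day stroma, a log2 ratio of 0.23, against -0.30 in seedlings. Only trnG (ArthCt092) and psaB were called under all 3 scalings, and single-copy scaling left these 2 alone. Leaving out 1 library gave 3 to 13 genes, with 3 without seedling membrane replicate 1, 6 without seedling stroma replicate 1 and 7 without seedling replicate 3 of either fraction or Day stroma replicate 3. Age, light regime and growth medium differ between the sets and cannot be told apart.

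**Figure D5:**
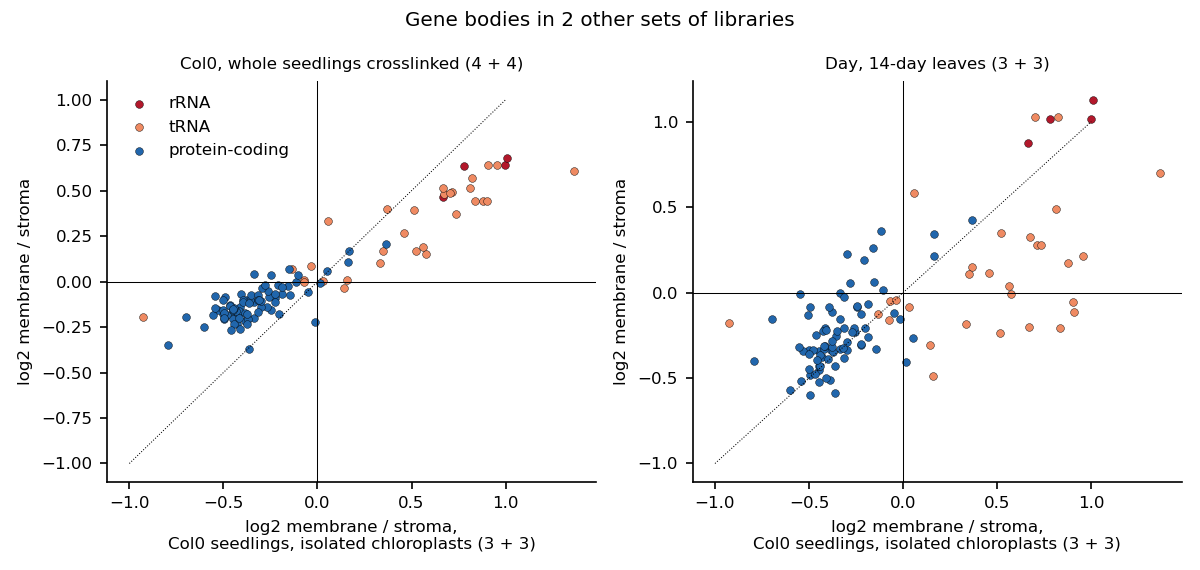
Log2 membrane to stroma ratio of 113 gene bodies in Col0 seedlings (horizontal axes) against the same measure in whole seedlings fixed before grinding (left, 4 against 4 libraries) and in Day leaves (right, 3 against 3); the dotted line marks equal ratios. On the left all 26 genes higher in the first set lie above 0; on the right the rRNA genes stay near or above the dotted line while most tRNA genes lie below it.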

How the data were processed

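Members and gene lists were chosen with earlier results of these data known. The authors deposited, per the file headers, a signal for each library: read coverage at every position of the plastid genome (TAIR10); the submitters' processing notes name Trim Galore 0.4.1, Bowtie2 and bedtools 2.25.0. Read length, duplicate removal and the placing of repeat reads are not given in the sources used here, so no counting interval was computed. Coverage was averaged over 309 windows of 500 bp, of which 259 were tested after the second repeat copy (129565 to 154312, bounded by 15 mirrored gene pairs) was left out, and over 113 of 129 gene entries from a RefSeq table of TAIR10.1, whose repeat axis (238649) equals that of the coverage. The table gives no strand. Values were divided by the library's mean window and taken as log2, with no pseudocount.

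limma 3.58.1 in R 4.3.3 (lmFit, contrasts, eBayes, two-sided, Benjamini-Hochberg over all windows or genes, called at 0.05) fitted all 30 libraries of the first table together, 1 mean per group, and the 31 usable libraries of the second table apart. The first fit thus also held sig2-2 and sig6-1 seedlings and 14-day-old leaves after 24 h of darkness. The second also held sig2-2, chl27 and chlm seedlings. These groups shaped the estimate of the spread and not the ratios. The limma fit was tested on simulated data. Single values per library were compared by exact permutation (scipy 1.17.1). Genes named are the 10 highest and 10 lowest called without overlap, the highest and lowest of each role list, psbA, rbcL, psaA, psbB, rpoB, ycf2 and the profiled genes; windows named are the 5 highest and 5 lowest and runs of 4 or more. Replicate numbers were not taken as pairs in the first set (correlation of same-numbered deviations 0.24, -0.55 and -0.04). That choice too was made from the data, which cannot show whether same-numbered libraries shared a preparation. In the seedlings fixed whole replicate numbers were taken as pairs (0.45, 0.78, 0.15 and 0.90), decided from the data since the labels name no shared batch. Same-numbered libraries were not always the most alike there. Stroma replicate 1 had 0.56 with membrane replicate 2 and 0.16 with membrane replicate 3. Alternatives were other scalings, samples in the fit, a replicate block, a pseudocount of 10, a filter on low values, both repeat copies, a variance trend, other window sizes, gene flanks of 100 bp and leaving out each library. Counts of tRNA and protein-coding calls by alternative were added after the data were seen.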

Additional observations from a re-analysis of the deposited data

Results flagged for a closer look

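The ratio of membrane to stroma differed between seedlings and Day leaves, by a limma test of the difference itself, in 11 genes. The differences on the log2 scale, seedlings minus Day, were 1.04 for trnL (Arthct122), 1.02 for trnQ, 0.96 for trnP, 0.87 for ArthCt100 and 0.59 for trnG (ArthCt092), all of them tRNA genes. They were -0.54 for rpl23, -0.54 for rps7, -0.52 for psaB, -0.47 for psbC, -0.42 for psbD and -0.41 for ycf2. trnE in stroma replicate 2 of the seedlings fixed whole, at a relative coverage of 1.14, was flagged by Dixon's criterion. The other 3 stroma libraries had 0.805, 0.812 and 0.857. The criterion flags about 1 in 20 groups by chance. It was applied to psbA, trnQ, trnE, rrn23S, rpoC2 and rps2 in each fraction of that set, and no other library was flagged.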

How the results depend on the processing

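Counts of calls in the seedling set were 178 windows and 82 genes. Median scaling gave 94 windows and 46 genes, with 5 protein-coding genes higher and 15 lower, and single-copy scaling gave 3 higher and 34 lower. Windows of 200 bp gave 385 of 649 and windows of 1000 bp gave 97 of 130, as their numbers differ. Fitting Col0 alone called 237 windows and 101 genes, with 3 protein-coding genes higher and 71 lower. Gene bodies with 100-bp flanks gave 2 protein-coding genes higher. The share of the repeat turned to -0.30 with the median over bases. Leaving out 1 library gave 154 to 170 windows, 66 to 79 genes, 19 to 21 higher tRNA genes, 1 higher and 41 to 53 lower protein-coding genes, and shares of 0.17 to 0.24 (repeat), -0.19 to -0.13 (large single-copy) and -0.33 to -0.27 (small single-copy).

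In the seedlings fixed whole, the 28 windows became 18 (median), 11 (single-copy), 17 (Col0 alone) and 102 (replicate block), and the 18 genes 8 (single-copy), 47 (Col0 alone) and 59 (block). Leaving out 1 library gave 13 to 21 windows and 9 to 20 genes, lowest without stroma replicate 2 and membrane replicate 1. The 11 genes that differed from Day became 2 (single-copy) and 19 (block). They numbered 3 to 13 without 1 library, 3 without Col0 membrane replicate 1, and the 42 windows 26 to 44, also lowest without it. In the seedling set, whose numbers were not taken as pairs, the replicate block called 199 windows and 88 genes.

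Of genes named in the report, none of those called changed sign. Uncalled, matK turned to 0.24 by the median, where it was called higher, and to 0.13 by the single-copy mean. Signs turned, with no call on either side, for psaC (0.14 median, 0.036 single-copy), petG (0.27 median, 0.17 single-copy, 0.011 flanks, -0.092 to 0.10 without 1 library), atpH (-0.086 flanks, -0.010 to 0.041 without 1 library), ndhK (0.063), rpl20 (0.064), psaA (0.082) and psbB (0.10), the last 4 by the median. They also turned, by the median and the single-copy mean, for psbD (0.13 and 0.023), psbC (0.17 and 0.066), trnC (0.22 and 0.11; 0.12 with flanks, -0.14 to 0.0039 without 1 library), trnS (ArthCt125; 0.22 and 0.11), trnI (ArthCt113; 0.25 and 0.15; 0.098 with flanks) and trnL (ArthCt126; 0.15 and 0.046), and for trnV (Arthct121; -0.020 to 0.11 without 1 library). The causes were not tested. Depth gives no counting interval here because read length is unknown.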
